A study of Bos indicus with 6 samples.

Results

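Hepatocyte growth factor (HGF), its receptor MET, the proteases HGFAC and ST14 and the protease inhibitors SPINT1 and SPINT2 were examined in the isthmus of the bovine oviduct. The members were the rows of the deposited table whose gene symbol equalled 1 of these 6 names. Each name matched a single row, which gave 6 of the 24616 genes listed. All 6 passed the filter on low and variable genes (a mean over the libraries above 5 and above the SD).

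The libraries came from 6 multiparous, non-lactating Nelore cows (Bos indicus), 3 labelled LF/LCL and 3 labelled SF/SCL, and each cow gave 1 RNA-seq library. The LF/LCL cows ovulated a larger follicle and formed a larger corpus luteum, and the SF/SCL cows a smaller one. All cows were first pre-synchronized with a GnRH agonist (buserelin) and, days later, a prostaglandin F2 alpha analog (PGF, cloprostenol). They then received a progesterone (P4) device of 1 g with 2 mg of estradiol benzoate. PGF followed at device removal and again later, and a GnRH agonist was given to induce ovulation. The interval from device removal to GnRH was 42 h for LF/LCL and 30 h for SF/SCL, and only LF/LCL cows also received PGF at device insertion. Tissue of the full oviduct wall, on the side of the corpus luteum, was collected on day 4 after GnRH. The cows sequenced were not a random draw, since the study had taken the top-ranked LF/LCL and the bottom-ranked SF/SCL animals by follicle, corpus luteum and hormone measurements. The cows were healthy, and their ages are not given in the sources used here.

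HGF is a secreted growth factor made mainly by stromal cells as an inactive single chain. Serine proteases cut it into the form that activates MET, a receptor tyrosine kinase found mainly on epithelial cells, where it drives motility, growth and tubule formation. HGFAC (HGF activator) and ST14 (matriptase, a protease anchored in the epithelial membrane) make that cut, and the Kunitz-type membrane proteins SPINT1 and SPINT2 inhibit them.

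Values are normalized counts, that is, reads per gene divided by the DESeq size factor of the library. The reads counted for genes, which are fewer than the reads sequenced, ran from 23899117 to 34193164 per library. The SF/SCL cows were not alike. For OVGP1, the main secretory product of the oviduct, and MSLN, a mesothelial marker, cows 856 and 97 stood apart (271794 and 325158 for OVGP1, 17590 and 18098 for MSLN) and cow 489215 lay near the LF/LCL cows (729.6 and 2299). The other mesothelial markers did not divide the cows in this way. LRRN4 had 3.80, 5.33 and 16.3 in SF/SCL cows 856, 489215 and 97, and 174.8 to 412.1 in LF/LCL. UPK3B had 37.2, 141.1 and 626.4 in these SF/SCL cows, and 87.0 to 325.7 in LF/LCL. Results that turn on cow 489215 are also given without it, and those then rest on cows 856 and 97 alone for SF/SCL. Without that library the median standard error over all genes tested fell from 0.346 to 0.168 on the log2 scale. Log2 fold changes are SF/SCL over LF/LCL on the log2(value + 1) scale, so that a gene with a negative value was more abundant in LF/LCL. They were tested with limma, and Benjamini-Hochberg adjustment was over all 15387 genes tested.

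For 4 of the 6 members the LF/LCL and SF/SCL cows were fully apart, against 18.1% of all genes tested. MET was higher in every LF/LCL cow, and SPINT1 and SPINT2 were higher in every SF/SCL cow. HGF, the fourth, is counted as apart by its point values only, since its nearest cows differed by less than counting error. ST14 and HGFAC overlapped between the groups. With limma, 3 of the 6 members (MET, SPINT1 and SPINT2) had an unadjusted p-value under 0.05, against 8.66% of all genes (1333 genes), but 0 of 6 had an adjusted p-value under 0.05, a threshold that 0 of the 15387 genes (0%) reached. The quasi-likelihood test of edgeR on the recovered reads gave the same picture, with 3 of 6 members at an unadjusted p-value under 0.05, against 8.70% of all genes, and 0 past the adjusted threshold. DESeq2 on the same reads called MET and SPINT2, or 2 of 6 members, where it called 2.66% of all genes. Leaving out cow 489215, limma called 4 of 6 members (MET, ST14, SPINT1 and SPINT2) from SF/SCL cows 856 and 97 against the 3 LF/LCL cows, where it called 18.2% of all genes. When LF/LCL cow 79 or LF/LCL cow 527 was left out instead, the number of members at an unadjusted p-value under 0.05 was 1. The number over all genes fell as well, from 1333 to 605 without cow 79 and to 663 without cow 527.

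**Figure D1:**
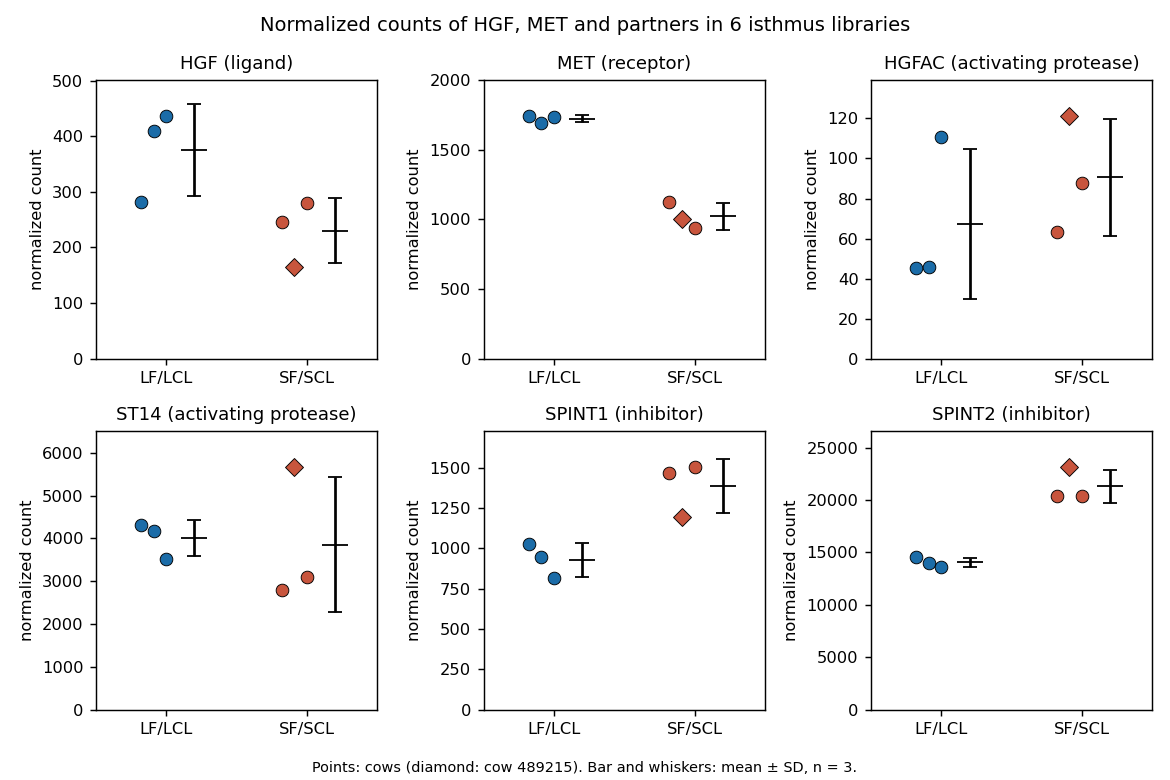
Normalized counts (linear axes starting at 0) of the 6 members in each cow by group, with mean ± SD (n = 3) beside the points and cow 489215 as a diamond. The groups are apart for MET, SPINT1 and SPINT2, and for HGF they meet at 281.6 in cow 617 and 279.6 in cow 97, whereas for ST14 cow 489215, at 5669, lies above all LF/LCL cows.

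The ligand HGF (ENSBTAG00000017664) had normalized counts of 281.6, 410.2 and 436.5 in LF/LCL cows 617, 79 and 527. In SF/SCL cows 856, 489215 and 97 it had 245.3, 165.1 and 279.6. The highest SF/SCL cow lay only 1.94 below the lowest LF/LCL cow, and the counting intervals of these cows overlapped almost entirely, so that their order could not be told at this depth. For cow 617 (269 reads) the exact 95% Poisson interval was 248.9 to 317.3, and for cow 97 (258 reads) it was 246.5 to 315.9, for counting error only. The group values were 376.1 ± 82.9 and 230.0 ± 58.8 (SD, n = 3 each). The log2 fold change was -0.72 (95% confidence interval -1.47 to 0.04, unadjusted p = 0.0604 and adjusted p = 0.609 from limma), which the spread between cows could not tell from 0. Without cow 489215, the lowest of the cows for HGF, it was -0.49 (adjusted p = 0.180 from limma).

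The receptor MET (ENSBTAG00000006161) was the member with the smallest p-value and the least spread within the LF/LCL group. Its normalized counts were 1741, 1692 and 1738 in LF/LCL cows 617, 79 and 527. In SF/SCL cows 856, 489215 and 97 they were 1123, 1003 and 936.4, so that the highest SF/SCL cow stayed well below the lowest LF/LCL cow. The group values were 1724 ± 27.2 and 1021 ± 94.4 (SD, n = 3 each), a 1.69-fold higher level in LF/LCL on the fitted scale. The log2 fold change was -0.76 (standard error 0.17, 95% confidence interval -1.16 to -0.36, unadjusted p = 0.00297 and adjusted p = 0.367 from limma). It was -0.75 (adjusted p = 0.00833 from limma) without cow 489215 and -0.75 (standard error 0.17, adjusted p = 0.00183) with DESeq2. MET was the only member for which cow 489215 lay between the other SF/SCL cows. MET is also among the genes that the study chose to measure further in these tissues, so it was not picked here without knowledge of its difference.

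Of the activating proteases, HGFAC (ENSBTAG00000017335), which in the body is chiefly a liver product, was the member with the fewest reads, 43 to 126 per library. It had normalized counts of 45.0, 46.0 and 110.7 in LF/LCL cows 617, 79 and 527, and of 63.05, 121.2 and 87.8 in SF/SCL cows 856, 489215 and 97. LF/LCL cow 527 lay among the SF/SCL cows. The spread within LF/LCL was larger than counting error, since the exact 95% Poisson interval was 92.2 to 131.8 for cow 527 and 34.0 to 60.8 for cow 79. The log2 fold change of 0.51 had a 95% confidence interval of -0.66 to 1.68 (adjusted p = 0.857 from limma), and it was 0.28 without cow 489215 and 0.93 without LF/LCL cow 527.

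ST14 (ENSBTAG00000019712) had normalized counts of 4324, 4173 and 3520 in LF/LCL cows 617, 79 and 527. SF/SCL cows 856 and 97 were below these, at 2798 and 3094, while SF/SCL cow 489215 was above all of them, at 5669. With all cows the groups were alike in mean, 4006 ± 427 and 3854 ± 1579 (SD, n = 3 each), and the log2 fold change was -0.12 (95% confidence interval -0.83 to 0.59, adjusted p = 0.937 from limma). The result therefore turned on 1 library. Without cow 489215 the log2 fold change was -0.44 (95% confidence interval -0.72 to -0.16, adjusted p = 0.0479 from limma), and without SF/SCL cow 856 it was 0.07.

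The Kunitz inhibitors lay the other way from MET. SPINT1 (ENSBTAG00000004086, also called HAI-1) had normalized counts of 1028, 945.2 and 816.0 in LF/LCL cows 617, 79 and 527, and of 1466, 1194 and 1505 in SF/SCL cows 856, 489215 and 97. Every SF/SCL cow was above every LF/LCL cow, and cow 489215 was the nearest to them. The group values were 929.7 ± 106.8 and 1389 ± 169 (SD, n = 3 each), and the log2 fold change was 0.58 (standard error 0.19, unadjusted p = 0.0223 and adjusted p = 0.471 from limma). Without cow 489215 it was 0.68 (adjusted p = 0.0162 from limma), whereas DESeq2 with all cows gave an adjusted p-value of 0.153.

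SPINT2 (ENSBTAG00000000182, also called HAI-2) had normalized counts of 14530, 13982 and 13612 in LF/LCL cows 617, 79 and 527. In SF/SCL cows 856, 489215 and 97 it had 20421, 23139 and 20338. These groups were widely apart, and cow 489215 was the highest of all. The group values were 14041 ± 462 and 21299 ± 1594 (SD, n = 3 each), a 1.51-fold higher level in SF/SCL on the fitted scale. The log2 fold change was 0.60 (standard error 0.18, 95% confidence interval 0.18 to 1.02, unadjusted p = 0.0121 and adjusted p = 0.424 from limma). It was 0.54 (adjusted p = 0.00906 from limma) without cow 489215 and 0.60 (adjusted p = 0.00853) with DESeq2.

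**Figure D2:**
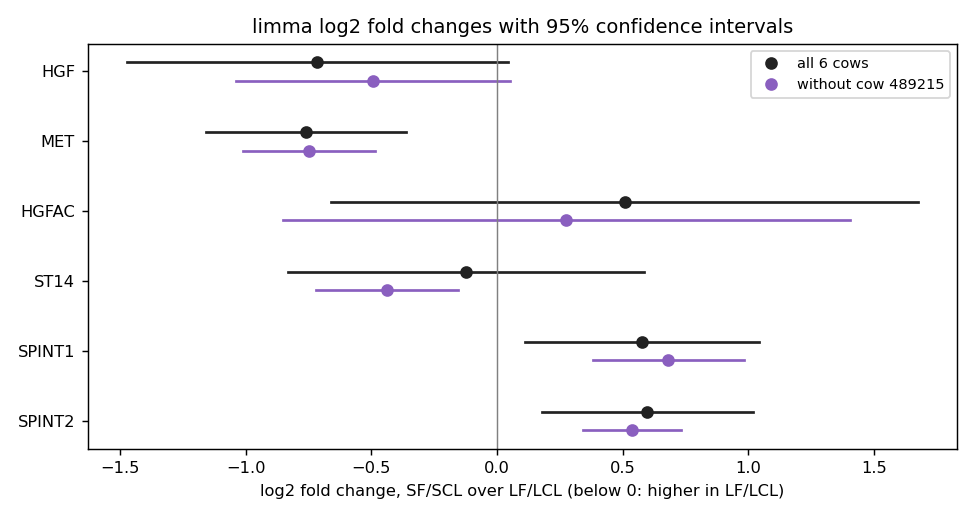
Log2 fold change (SF/SCL over LF/LCL, horizontal axis) of each member from limma with its 95% confidence interval, with all 6 cows in black and without cow 489215 in purple. The intervals of MET, SPINT1 and SPINT2 exclude 0 in both fits, that of ST14 does so only without cow 489215, and those of HGF and HGFAC include 0 in both.

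Within a library, the ratio of a pair of genes does not depend on the size factor. Log2 ratios of 4 pairs were therefore tested by exact permutation, over the 20 ways to assign the cows to groups, for which the smallest possible two-sided p-value is 0.1. The level of a ratio also holds the difference in gene length, so only its change between cows is read. The log2 ratio of SPINT2 to ST14, inhibitor to protease, was 1.75, 1.74 and 1.95 in LF/LCL cows 617, 79 and 527, and 2.87, 2.03 and 2.72 in SF/SCL cows 856, 489215 and 97. It was higher in every SF/SCL cow, by 0.72 on average (exact permutation test, p = 0.1, and 0.4 when adjusted by Benjamini-Hochberg for the 4 ratios). Cow 489215 exceeded LF/LCL cow 527 only slightly, and without it the difference was 0.98.

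The log2 ratio of SPINT1 to ST14 was -2.07, -2.14 and -2.11 in the LF/LCL cows, nearly constant, and -0.93 and -1.04 in SF/SCL cows 856 and 97. In cow 489215 it was -2.25, below the LF/LCL cows. The difference was 0.70 (exact permutation test, p = 0.4), and 1.121 without cow 489215. The ratio of MET to HGF overlapped between the groups, at 1.99 to 2.62 in LF/LCL and 1.74 to 2.60 in SF/SCL on the log2 scale, with a difference of -0.04 (exact permutation test, p = 0.9). The ratio of SPINT2 to SPINT1 differed by 0.02 (exact permutation test, p = 1). The direction of either of these small differences turned when single cows were left out.

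The isthmus samples held the whole wall, and the members are made by different cells. Fewer cells of a type and less RNA per cell cannot be told apart in such samples, so markers of 8 cell types were measured beside the members. All 8 lists had reads in every library. Of the 12 general epithelium markers, 6 were higher in SF/SCL and 1 lower at an unadjusted p-value under 0.05 (limma). This was 58.3% of the list, against 8.66% of all genes. The summed normalized count of the 12 markers was 38201 to 57098 in LF/LCL and 60829 to 84097 in SF/SCL. On the log2 scale the mean of the list overlapped between the groups, since LF/LCL cow 617 (0.17 above the mean of the 6 cows) exceeded SF/SCL cows 856 and 97 (0.02 and 0.15 above it). The 6 higher markers were EPCAM, KRT8, KRT18, KRT7, CLDN7 and ESRP1. The lower marker was E-cadherin (E-CADHERIN, the adhesion protein of epithelial junctions). It had 5285, 4830 and 4674 in LF/LCL cows 617, 79 and 527. In SF/SCL cows 856, 489215 and 97 it had 2716, 2715 and 2993. Its log2 fold change of -0.81 (adjusted p = 0.367 from limma) was close to that of MET. The remaining markers overlapped between the groups. KRT19, CLDN3 and GRHL2 had log2 fold changes of 0.66, 0.49 and 0.01, and CLDN4 and ELF3 were lower in SF/SCL, at -0.07 and -0.54. Without cow 489215, CLDN4 and ELF3 were at -0.88 and -1.09, and GRHL2 at 1.09.

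Of the 7 fibroblast markers, 5 were lower in SF/SCL at an unadjusted p-value under 0.05 (limma), or 71.4% against 8.66% of all genes. The summed normalized count of the 7 markers was 331801 to 423370 in LF/LCL and 155709 to 230665 in SF/SCL. The median log2 fold change was -1.002 for this list and 0.55 for general epithelium, where that of all genes tested was -0.02. Among 8 ciliated cell markers, 3 were higher in SF/SCL at an unadjusted p-value under 0.05 (limma), or 37.5% against 8.66% of all genes. At the same threshold 1 of 4 endothelial markers (CDH5) was lower. A single gene of 4 is too few to be told from the 8.66% of all genes. Of the 7 smooth muscle and 5 leukocyte markers, and of PAX8 for the secretory cells, 0 reached an unadjusted p-value under 0.05. OVGP1, at 286.8 to 1950 in all cows but 856 and 97, failed the filter, as did the 3 mesothelial markers. The summed smooth muscle markers were 320565 and 386979 in SF/SCL cows 856 and 97, 705137 to 825682 in the LF/LCL cows and 1217824 in cow 489215. Without that cow, 6 smooth muscle and 6 fibroblast markers were lower in SF/SCL at an adjusted p-value under 0.05 (limma). At the same threshold 6 ciliated cell markers and PAX8 were higher. In that fit 18.2% of all genes passed this threshold in either direction.

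Against the epithelial markers the members divided. The log2 value of MET minus the mean of the 12 markers was -0.98, -0.60 and -0.29 in LF/LCL cows 617, 79 and 527, and -1.47, -2.05 and -1.86 in SF/SCL cows 856, 489215 and 97. MET was thus lower relative to the epithelial markers in every SF/SCL cow, by 1.17 on the log2 scale (exact permutation test, p = 0.1, and 0.5 when adjusted by Benjamini-Hochberg for 5 such values), which is a larger difference than that of MET alone. For SPINT2 the difference relative to the same markers was 0.19, with the groups overlapping (exact permutation test, p = 0.4), against 0.60 for SPINT2 alone. For SPINT1 it was 0.17 (exact permutation test, p = 0.6), against 0.58 alone. Both values depended on the list and the cows, as with E-CADHERIN left out of the markers (chosen after seeing the data) they were 0.08 for SPINT2 and 0.06 for SPINT1, and without single cows they ran from 0.03 to 0.33 and from 0.03 to 0.39. ST14 was lower relative to these markers by 0.53 (exact permutation test, p = 0.2), with cow 489215 at 0.45, inside the LF/LCL range of 0.33 to 0.72. The part of the epithelial share in the SPINT1 and SPINT2 differences was not tested.

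HGF minus the mean of the 7 fibroblast markers was -5.94, -5.80 and -5.70 in LF/LCL cows 617, 79 and 527. In SF/SCL cows 856 and 97 it was higher, at -5.36 and -5.19, and in cow 489215 it was lower, at -6.38. The difference was 0.17 (exact permutation test, p = 0.7), against -0.72 for HGF alone, and 0.54 without cow 489215. Within SF/SCL, cow 489215 had the lowest HGF and the highest mean of the fibroblast markers. The part of the fibroblast markers in the HGF values was not tested.

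**Figure D3:**
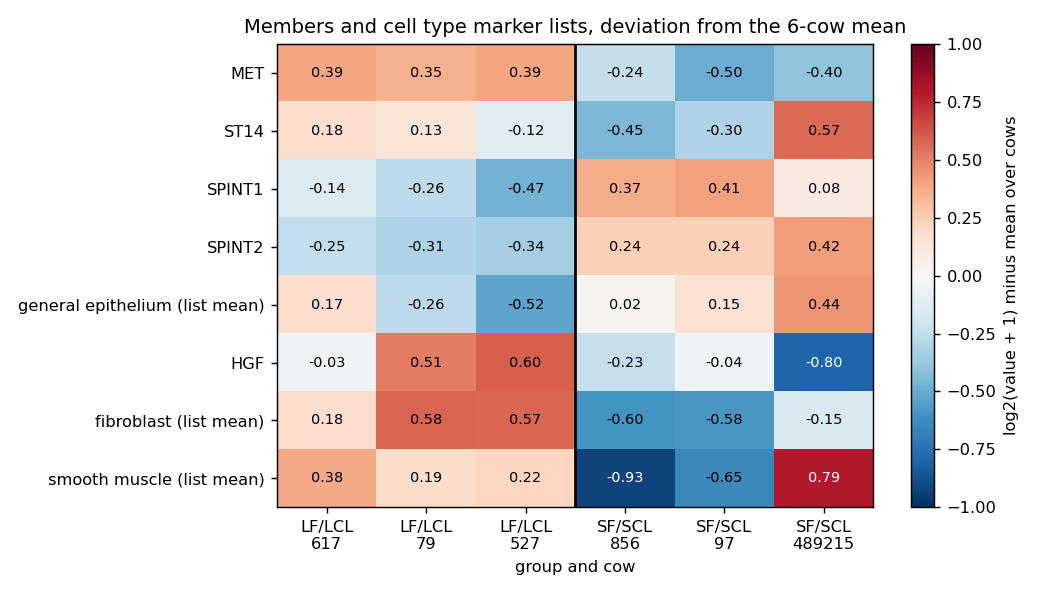
Deviation of each gene, or of the mean of a marker list, from its mean over the 6 cows (log2(value + 1), colour scale and printed number), with LF/LCL cows left and SF/SCL cows right of the line. SPINT2 and the epithelial mean are highest in cow 489215 (0.42 and 0.44), in which HGF is lowest (-0.80).

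Beyond the members, 77 further genes of the pathway were taken by role, of which 76 had a row (SPINT3 had none) and 68 rows passed the filter. At an unadjusted p-value under 0.05, 6 were higher and 7 lower in SF/SCL, or 19.1% of the rows tested against 8.66% of all genes, and the groups did not overlap for 22 rows, or 32.4% against 18.1% of all genes. The adjusted threshold was reached by 0 with limma and by 4 with DESeq2, which called 2.66% of all genes. The median log2 fold change was -0.17, beside -0.02 for all genes tested. The number at an unadjusted p-value under 0.05 was 8, 6 and 7 without LF/LCL cows 617, 79 and 527. Over all genes it was then 909, 605 and 663, against 1333 with all cows. Without SF/SCL cow 489215 it was 32 on the lists and 5253 over all genes. In that fit 23 of the lists passed the adjusted threshold, as did 18.2% of all genes.

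Among the other serine proteases, PLAT (tissue plasminogen activator) had normalized counts of 1465 to 1939 in LF/LCL and 2954 to 3930 in SF/SCL, with a log2 fold change of 1.09 (standard error 0.20, unadjusted p = 0.00109 and adjusted p = 0.351 from limma). F2, whose product thrombin activates HGFAC, had 153.0 to 190.6 in LF/LCL and 268.9 to 1087 in SF/SCL, a log2 fold change of 1.88. PRSS8 (prostasin, a partner of matriptase) was higher in each SF/SCL cow, at 567.4 to 957.2 against 340.8 to 485.6 (log2 fold change 0.76). TMPRSS2, a transmembrane protease, lay the other way, at 505.9 to 579.8 in SF/SCL and 685.1 to 917.9 in LF/LCL. These 4 of the 9 proteases tested had an unadjusted p-value under 0.05 (limma), or 44.4% against 8.66% of all genes, and 0 passed the adjusted threshold.

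HPN (hepsin) and PLAU (urokinase), which also cut HGF, overlapped between the groups, and would not have done so without cow 489215. HPN had 1190 to 1477 in LF/LCL and 202.0, 2439 and 489.9 in SF/SCL cows 856, 489215 and 97, and its log2 fold change was -1.11 with all cows and -2.10 when cow 489215 was left out (adjusted p = 0.0122 from limma). PLAU had 342.3 to 472.5 in LF/LCL and 1038, 229.0 and 809.6 in the SF/SCL cows in the same order. The log2 fold change was 0.55, and leaving out cow 489215 made it 1.22 (adjusted p = 0.00984 from limma).

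Of the 5 rows tested for other protease inhibitors, 1 had an unadjusted p-value under 0.05. This was a row of SERPINB2, an inhibitor of plasminogen activators, with 0.939 to 33.5 in LF/LCL and 38.6 to 110.1 in SF/SCL. These are low counts, and LF/LCL cow 617 (33.5) lay close to SF/SCL cow 489215 (38.6). The unadjusted p-value of this row was 0.0152 from limma and 0.0523 from edgeR. A second row carries the same symbol and had almost no reads. Without cow 489215, 5 rows of this list were tested, not all of them the same. Of these, 3 were lower and 0 higher in SF/SCL at an adjusted p-value under 0.05 (limma), which 18.2% of all genes then reached. Of the 4 matriptase and prostasin targets tested, EPCAM, also used as an epithelial marker here, was higher in SF/SCL (8530 to 12286 against 15871 to 20313, log2 fold change 0.85). MST1, the ligand closest to HGF, and its receptor MST1R overlapped between the groups, with log2 fold changes of 0.03 and -0.97 (adjusted p = 0.989 and adjusted p = 0.650 from limma).

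All 12 genes of MET processing, co-receptors and antagonists had a log2 fold change below 0, with a median of -0.54, and 5 of them (41.7%, against 8.66% of all genes) an unadjusted p-value under 0.05. DESeq2 called 0 of the 12. Without cow 489215 the median was -0.47 and 8 of the 12 were lower at an adjusted p-value under 0.05 (limma). In that fit 18.2% of all genes passed this threshold in either direction. However, PLXNB1, a plexin named after its values were seen, went from -0.30 to 0.11 without that cow. The neuropilins NRP2 and NRP1, co-receptors for growth factors, had 7605 to 8220 and 1378 to 1888 in LF/LCL and 1464 to 4331 and 383.4 to 979.9 in SF/SCL. Their log2 fold changes of -1.42 and -1.12 were closer to 0, at -0.91 and -0.68, when cow 489215 was left out. FURIN, the convertase that cuts the MET precursor, had 2986 to 3543 in LF/LCL and 933.3 to 2289 in SF/SCL (log2 fold change -0.92, and -0.50 without cow 489215). SDC1, a heparan sulfate proteoglycan of epithelia, had 3096 to 3274 in LF/LCL and 655.5 to 2873 in SF/SCL (log2 fold change -1.23). Its highest SF/SCL value was that of cow 489215, and without this cow the log2 fold change was -1.78 (adjusted p = 0.00863 from limma). The fifth was ADAM10, a sheddase of membrane proteins that was named after its values were seen, with a log2 fold change of -0.73 that shrank to -0.40 on leaving out that cow. DCN (decorin, a matrix proteoglycan that can bind MET) overlapped between the groups, at a log2 fold change of -0.65 with all cows and of -0.91 when cow 489215 was left out (adjusted p = 0.0101 from limma).

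The relay behind the receptor stood closer to the background. Of 26 adaptors and relay genes, 1 had an unadjusted p-value under 0.05 (limma), or 3.85% against 8.66% of all genes. The median log2 fold change of these 26 was -0.14, or -0.01 without cow 489215. The gene was PAK1, a kinase of cell motility, with 1256 to 1515 in LF/LCL and 2095 to 2610 in SF/SCL (log2 fold change 0.68, adjusted p = 0.405 from limma, and adjusted p = 0.0481 with DESeq2). GAB1, the docking protein of MET, had 1722 to 1989 in LF/LCL and 2162 to 2388 in SF/SCL, a log2 fold change of 0.30 (unadjusted p = 0.106 from limma). Of 10 genes of MET down-regulation, 1 had an unadjusted p-value under 0.05 (limma), a share close to the 8.66% of all genes. This gene was SH3KBP1, an adaptor in receptor uptake, with 444.8 to 624.2 in LF/LCL and 300.9 to 376.8 in SF/SCL. Without cow 489215, 3 of the 10 genes were higher and 0 lower in SF/SCL at an adjusted p-value under 0.05 (limma). This threshold was then passed by 18.2% of all genes in either direction. CBL, the ubiquitin ligase that marks MET for degradation, had 303.2 to 389.1 in LF/LCL and 688.9, 38.6 and 660.0 in SF/SCL cows 856, 489215 and 97. Its log2 fold change was -0.39 with all cows and 0.98 without cow 489215 (adjusted p = 0.0101 from limma).

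**Figure D4:**
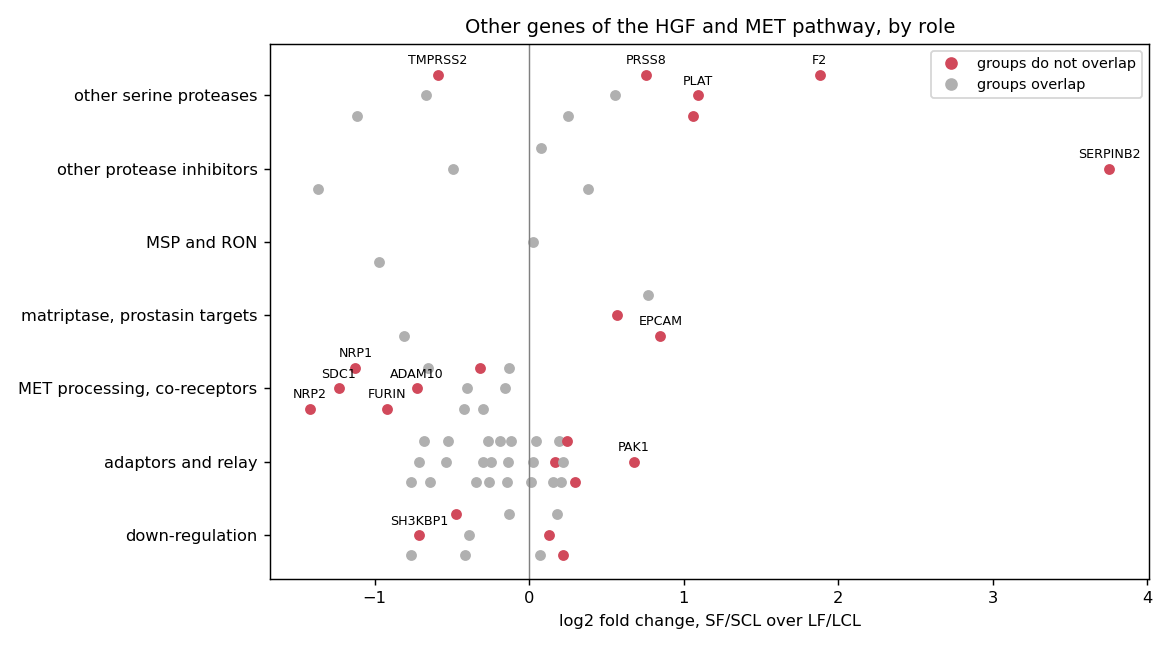
Log2 fold changes (SF/SCL over LF/LCL, horizontal axis) of the 68 tested rows of the pathway lists by role, in red where the groups do not overlap, with names where the unadjusted p-value was also under 0.05. The 12 genes of MET processing and co-receptors all lie below 0 with all cows (PLXNB1 does not without cow 489215), and the median of the relay genes is -0.14 with all cows and -0.01 without that cow.

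For the 5 members other than HGFAC, for which it was not done, the genes most alike in pattern were found by the root mean square difference of the log2 values over the 6 libraries, after the mean of each gene was subtracted. For MET they were ANKRD13A (0.0524), COL18A1 (0.0597), the core of a basement membrane collagen, and VIPR2 (0.0986), a receptor for vasoactive intestinal peptide. For HGF they were OSMR (0.0572), the receptor of oncostatin M, ADCY3 (0.0772) and MAP7D3 (0.0862). The pattern of ST14, with its peak in cow 489215, was nearest to those of HRMT1L2 (0.0378), CBS (0.0417) and CALR (0.0562), an endoplasmic reticulum chaperone. Nearest to SPINT1 were CCDC153 (0.0554), CACNB3 (0.0633) and GALK2 (0.0636), and nearest to SPINT2 were TMBIM6 (0.0394), PCYOX1L (0.0413) and TP53I3 (0.0466). None of these 5 lists of 3 genes held another member.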

How the data were processed

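Messenger RNA of the isthmus was sequenced in 6 cows, 1 library each, and groups were taken from the sample titles. The authors filtered the reads, aligned them to the UMD bovine assembly with TopHat2 2.0.8 and Bowtie2 2.1.0, counted unique alignments for each Ensembl gene with HTSeq 0.5.4p2, and divided the counts by DESeq 1.12.1 size factors (versions from the submitters' processing notes). The deposited signal values are these normalized counts. Use of strand in counting is not given in the sources used here, so antisense or overlapping transcripts could share reads with a member.

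Values of each library were multiples of 1 step, and whole reads were recovered for 100% of them (tolerance 0.1 reads). Genes with a mean above 5 and above the SD were tested with limma 3.58.1 (trend, robust) in R 4.3.3 on log2(value + 1), which understates changes of low genes. The recovered reads were also tested with edgeR 4.0.16 (quasi-likelihood) and with DESeq2 1.42.0. Ratios and summaries used Python 3.11.15, and the plots used matplotlib 3.10.9. The limma, edgeR and DESeq2 fits, and a limma-voom fit used as an alternative, were also run on simulated counts. The other alternatives were not. Alternatives were other tools, pseudocounts, filters, a TMM rescaling and leaving out each cow.

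The members and lists were chosen with earlier results of these data known. Genes were named where they were members, where the groups did not overlap with an unadjusted p-value under 0.05 (up to 4 per role), where they have a defining role, or where they were the 3 most alike in pattern. The general epithelium list names CDH1, whose row carries the symbol E-CADHERIN, and PECAM1 of the endothelial list had no row. The ampulla libraries, qPCR and hormone data were not analysed here, and no sequences or positions were used.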

Additional observations from a re-analysis of the deposited data

How the results depend on the processing

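Of the 15 alternatives tried for each member, all kept the direction of HGF, MET, HGFAC, SPINT1 and SPINT2, and 1 turned that of ST14. Leaving out each cow in turn, the log2 fold change ran from -0.91 to -0.49 for HGF, -0.83 to -0.70 for MET, 0.28 to 0.93 for HGFAC, 0.49 to 0.68 for SPINT1, 0.54 to 0.63 for SPINT2 and -0.44 to 0.0699 for ST14. The adjusted threshold was passed by MET (-0.75) and SPINT2 (0.60) with DESeq2, and by these, SPINT1 and ST14 without cow 489215. DESeq2 called 409 genes over the whole table, 2 members and 4 genes of the pathway lists. Without single cows the number called ran from 0 to 2827 genes, 0 to 4 members and 0 to 23 pathway genes. At an unadjusted p-value under 0.05 the numbers ran from 605 to 5253 genes, 1 to 4 members and 6 to 32 pathway genes. The highest numbers came without cow 489215, and that of members also without LF/LCL cow 617.

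The ratio differences had no call to lose, since p cannot go below 0.1. Without single cows, MET to HGF ran from -0.25 to 0.17, SPINT2 to SPINT1 from -0.14 to 0.12, and HGF relative to the fibroblast list from -0.0547 to 0.54, so that each turned its sign, while MET relative to the epithelial list stayed between -1.35 and -1.005. With the epithelial list taken without E-CADHERIN, an alternative chosen after seeing the data, that of MET was -1.28, of ST14 -0.65, of SPINT1 0.06 and of SPINT2 0.08. TMM rescaling moved the mean of a library by -0.03 to 0.02 on the log2 scale. Depth limited the order of cows 617 and 97 for HGF, and HGFAC had only 43 to 126 reads per library.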
